A study of Mus musculus with 9 samples.

Results

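The 9 genes described here, Hprt, Actb, Ppia, Ywhaz, Gapdh, Gusb, Tbp, Polr2a and B2m, are commonly used to scale quantitative PCR (qPCR) values from one sample to the next. They were chosen by gene symbol, and each was found among the 53465 genes of the count table. The symbol Gapdh stood on 3 rows because pseudogene names are shortened there, and the row with the most reads was kept, 1401934 reads over the 9 libraries against 12 for Gapdh-ps15 and 26 for Gapdh-ps14. That choice used only summed reads and no difference between groups. All 9 genes passed the filter on low counts, a CPM (counts scaled to the library's total) above 1 in at least 3 libraries, which 11950 genes passed in all.

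RNA was sequenced from bone marrow-derived macrophages (BMDMs) grown from male wild-type C57BL/6 mice (substrain J by the study's methods) for 5 to 10 days in medium with CSF1 at 50 ng/ml. They were left untreated (UNX) or given medium conditioned by pulmonary artery adventitial fibroblasts of control calves (CO-CM) or of calves with hypoxia-induced pulmonary hypertension (PH-CM), with 3 libraries in each group. All 9 libraries thus share strain, sex and the growth factor in which the cells were grown. The study's methods name serum but no CSF1 as added to the conditioned medium. The medium of each kind was pooled from several fibroblast populations, so replicates repeat the macrophage culture and not the calf. One protocol in the labels states an exposure of 16 h and the other 24 h, and the study's methods give a time between these. The libraries of a group are repeats of the experiment by the study's methods, and p-values measure the spread between those repeats. No source ties a replicate number to an animal or a day.

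A reference gene serves as the denominator of a relative qPCR value. The cycle number of the gene of interest is set against that of the reference, which cancels differences in the amount of RNA and in the efficiency of reverse transcription, and the result holds only where the reference itself is level across the conditions. Reference genes come from basic cell functions that most cells need, such as nucleotide metabolism, the cytoskeleton, protein folding, glycolysis, the lysosome and transcription. Of the 9, Hprt is the one the study set its own qPCR values against. The study also used 18S ribosomal RNA as an additional reference and reported much the same qPCR results with it. By its account fold sizes varied between the references while the trends of induction held. 18S is not among the 9 and was not analysed here. The other 8 stand here for common practice.

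The sequences of the mouse Hprt primers are shown because every relative value of that assay rests on the transcript between them. Capitals mark the bases that lie in exon 1 of the annotated transcript.
Hprt forward: tgggcTTACCTCACTGCTTT
Hprt reverse: ctaatCACGACGCTGGGACT
Both were placed on the GENCODE M21 transcripts of GRCm38. Hprt lies on chromosome X from 52988137 to 53021659 on the plus strand, with 9 exons and 1 annotated transcript of 1289 bases whose coding sequence starts at 52988224. The last 15 bases of the forward primer matched the first 15 bases of that transcript, in the 5′ untranslated part of exon 1 (52988137 to 52988151), and its first 5 bases, which were matched to no sequence here, would lie upstream of the annotated start. The reverse primer is complementary to coding sequence and crosses the junction of exons 1 and 2 (52988236 to 52999095 including the intron), with 15 bases in exon 1 and 5 in exon 2. With those 5 bases counted, the product on cDNA would be 124 bases. Of the 141767 transcripts searched, only that of Hprt held the reverse primer, while the last 15 bases of the forward primer also occurred in transcripts of Fgr.

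Libraries held between 62017933 and 84314201 counted reads. The macrophage markers were all present, and their summed level was higher in the treated libraries, with 11901 to 12487 CPM in UNX, 18256 to 18988 in CO-CM and 20719 to 21856 in PH-CM, with Lyz2 the most abundant. The 7 fibroblast markers summed to 201 to 254 CPM in UNX, 259 to 310 in CO-CM and 250 to 329 in PH-CM, and none was at 0 in a whole group. Of 10 markers of other marrow cells only Pf4 passed the filter, with summed levels of 156 to 178, 108 to 132 and 219 to 263 CPM in the same order, and 3, 4 and 3 of the 10 had no read in a group. The part of these marker shifts in the levels below was not tested. Fewer cells of a type and less RNA per cell cannot be told apart in these bulk libraries.

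Hprt fell in both conditioned media and fell further in PH-CM than in CO-CM. Its enzyme, hypoxanthine-guanine phosphoribosyltransferase, returns free purine bases to the nucleotide pool. Counted reads were 10523, 11846 and 13364 in the UNX libraries, 6256, 6492 and 7319 in CO-CM and 3404, 3392 and 3401 in PH-CM. Scaled for depth and composition by TMM (trimmed mean of M values), these became 162, 157 and 155 CPM in UNX, 91.4, 97.0 and 103 in CO-CM and 50.6, 54.5 and 53.7 in PH-CM. TMM takes most genes as unchanged, so a level here is relative to the bulk of genes, and RNA per cell is not known. By the calls defined below, 63.0% of genes tested changed in PH-CM against UNX, 31.3% higher and 31.7% lower. Whether the premise of TMM holds here was not tested. The 3 groups formed separate steps with no overlap between any 2 of them. Group means were 158 ± 3.59 CPM, 97.0 ± 5.68 and 52.9 ± 2.10 (SD, n = 3 each).

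The edgeR quasi-likelihood test gave a log2 fold change of -1.58 ± 0.053 (SE) for Hprt in PH-CM against UNX, a level 2.99-fold lower, with an adjusted p of 2.64e-09. In CO-CM against UNX it was -0.70 ± 0.052 (adjusted p 9.31e-07), and in PH-CM against CO-CM -0.87 ± 0.053 (adjusted p 1.19e-06). The change from UNX to PH-CM was larger in size than that of 91.6% of all genes tested. P-values were adjusted by the Benjamini-Hochberg method across all 11950 genes. Calls required both an adjusted p no higher than 0.05 and a fold no smaller than 1.2.

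**Figure D1:**
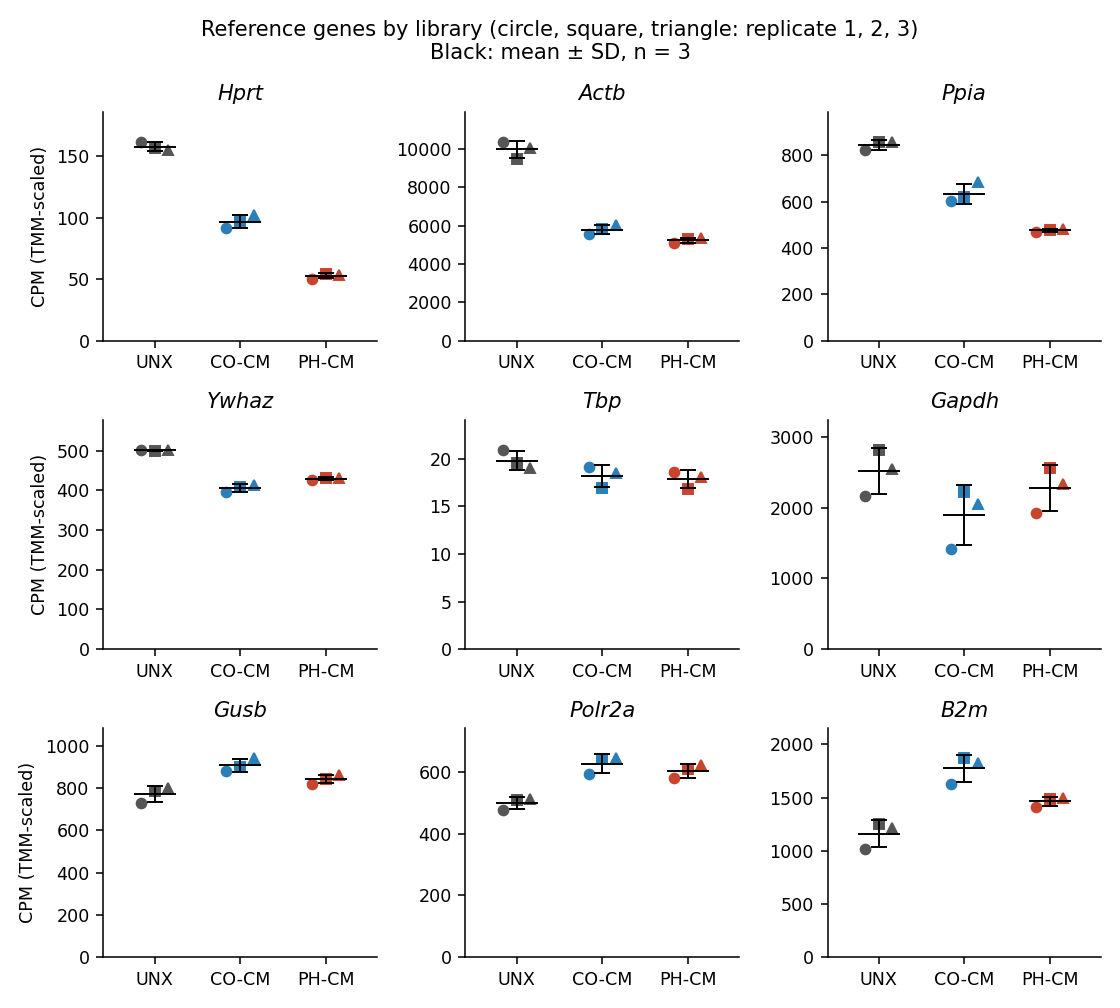
Level of each reference gene in each of the 9 libraries, in TMM-scaled CPM on axes that start at 0. Colours mark UNX, CO-CM and PH-CM, symbols the replicate number, and black bars the mean ± SD of 3 libraries. Hprt steps down from 158 to 97.0 to 52.9 CPM, Actb and Ppia fall in both media, Gusb, Polr2a and B2m lie above UNX, and replicate 1 is the lowest Gapdh library of every group.

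Actb, which encodes cytoplasmic beta-actin, was the most abundant of the 9 and fell by a similar amount in both media. It measured 10378, 9490 and 10041 CPM in UNX, 5542, 5799 and 6036 in CO-CM and 5068, 5291 and 5339 in PH-CM. Every treated library lay far below the untreated ones, and the 2 treated groups did not overlap but lay close together. The log2 fold change by edgeR was -0.93 ± 0.062 in PH-CM (1.91-fold lower, adjusted p 3.19e-07) and -0.78 ± 0.062 in CO-CM (adjusted p 1.64e-06) against UNX. Between the media it was -0.15 with a 95% interval from -0.28 to -0.0092 (adjusted p 0.0878), and was not called.

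Ppia encodes cyclophilin A, an abundant peptidyl-prolyl isomerase that assists protein folding, and like Hprt it fell in 2 steps. Levels were 821, 859 and 857 CPM in UNX, 601, 619 and 683 in CO-CM and 468, 475 and 483 in PH-CM. No 2 groups overlapped. The edgeR log2 fold changes were -0.83 ± 0.055 in PH-CM against UNX (1.78-fold lower, adjusted p 2.91e-07), -0.41 ± 0.055 in CO-CM against UNX (adjusted p 6.48e-05) and -0.42 ± 0.055 in PH-CM against CO-CM (adjusted p 0.000214).

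Ywhaz encodes 14-3-3 zeta, an adaptor that binds phosphorylated proteins, and it was the most even of the 9 within groups. It measured 502, 499 and 502 CPM in UNX, 396, 409 and 413 in CO-CM and 426, 431 and 432 in PH-CM. The groups did not overlap although they lay close together, with the CO-CM libraries lowest. Its log2 fold change by edgeR was -0.30 ± 0.040 in CO-CM against UNX (1.23-fold lower, adjusted p 5.98e-05), which was called. In PH-CM against UNX it was -0.22 ± 0.040 (adjusted p 0.000459), which passed the test but stayed under the fold of 1.2.

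Gapdh, the glyceraldehyde-3-phosphate dehydrogenase of glycolysis, varied more between replicates than any other member. Its levels were 2172, 2820 and 2551 CPM in UNX, 1411, 2220 and 2051 in CO-CM and 1927, 2567 and 2331 in PH-CM. The groups overlapped in every comparison, and the library numbered 1 was the lowest of each group. The edgeR log2 fold change was -0.14 in PH-CM against UNX (95% interval -0.51 to 0.22, adjusted p 0.446) and -0.41 in CO-CM against UNX (-0.78 to -0.040, adjusted p 0.0477). The latter call was lost, with adjusted p up to 0.139, when UNX replicate 2 or 3, CO-CM replicate 1 or 3 or PH-CM replicate 2 or 3 was left out, and with DESeq2, upper-quartile factors or only the 2 groups in the fit. With replicate number added as a block, which the libraries' deviations warranted, Gapdh stayed called lower in CO-CM against UNX (log2 -0.43, adjusted p 4.49e-05). In PH-CM against UNX the blocked fit gave log2 -0.15 (adjusted p 0.0339), which passed the test but stayed under the fold threshold. With the block Gapdh was also called higher in PH-CM than in CO-CM (log2 0.28, adjusted p 0.00198). Without the block it was not called in that comparison (0.26, adjusted p 0.239). Iffo1, on the opposite strand within the same locus, was assigned 28547 reads over the 9 libraries. Where counting ignored strand, reads from any exon stretch shared by both genes could not be told apart by gene.

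Gusb, the lysosomal beta-glucuronidase, was the member nearest to level in PH-CM. It measured 728, 786 and 798 CPM in UNX, 880, 900 and 942 in CO-CM and 821, 843 and 860 in PH-CM. All treated libraries lay above all untreated ones, by a small margin in PH-CM. The edgeR log2 fold change was 0.13 in PH-CM against UNX, with a 95% interval of 0.011 to 0.24 that lay wholly inside the fold of 1.2 (adjusted p 0.0470), and 0.24 in CO-CM against UNX, from 0.12 to 0.35 (adjusted p 0.00224). Neither was called.

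The 2 members from transcription differed in abundance and in direction. Tbp, the TATA-binding protein that recruits RNA polymerase to promoters, was the rarest of the 9, with 20.97, 19.5 and 19.0 CPM in UNX, 19.1, 16.9 and 18.5 in CO-CM and 18.7, 16.8 and 18.1 in PH-CM. The PH-CM libraries lay just below those of UNX, whereas CO-CM overlapped both. Its edgeR log2 fold change was -0.15 in PH-CM (95% interval -0.31 to 0.0031, adjusted p 0.0704) and -0.12 in CO-CM (-0.28 to 0.030, adjusted p 0.133), so it was called in neither, and neither interval lay wholly inside the fold of 1.2.

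Polr2a, the largest subunit of RNA polymerase II, measured 477, 507 and 511 CPM in UNX, 592, 643 and 644 in CO-CM and 578, 608 and 621 in PH-CM. Both treated groups lay above UNX and overlapped each other. Its edgeR log2 fold change was 0.33 ± 0.053 in CO-CM (adjusted p 0.000276) and 0.27 ± 0.053 in PH-CM (adjusted p 0.000846) against UNX, a fold of 1.21 in PH-CM that just passed the threshold of 1.2. Without UNX replicate 1 or PH-CM replicate 3 its log2 change in PH-CM was 0.23 or 0.26, and the call was lost.

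B2m encodes beta-2-microglobulin, the light chain of MHC class I, and rose in both media. Levels were 1014, 1251 and 1215 CPM in UNX, 1631, 1871 and 1824 in CO-CM and 1414, 1482 and 1497 in PH-CM. The groups did not overlap, and PH-CM lay between the other two. The edgeR log2 fold change was 0.61 ± 0.083 in CO-CM (1.53-fold higher, adjusted p 7.91e-05) and 0.34 ± 0.083 in PH-CM (adjusted p 0.00385) against UNX, and -0.28 ± 0.083 between the media (adjusted p 0.0235). The call in PH-CM was lost without UNX replicate 1 (log2 0.24), and that between the media was lost without any 1 of 5 libraries, CO-CM replicates 2 and 3 and PH-CM replicates 1, 2 and 3, with adjusted p up to 0.0875.

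In PH-CM against UNX, 5 of the 9 members were called, 2 higher and 3 lower, where 63.0% of all genes tested were called, 31.3% higher and 31.7% lower. Levels of the 2 groups did not overlap for 8 members, against 77.7% of all genes. Without UNX replicate 1 only 3 members were called, Hprt, Actb and Ppia. In CO-CM against UNX, 7 members were called, 2 higher and 5 lower, where 57.0% of all genes were called, 28.0% higher and 28.9% lower, and 7 members did not overlap, against 72.0%. In PH-CM against CO-CM, 3 members were called, all lower, where 27.1% of all genes were called, 12.2% higher and 15.0% lower, and 6 members did not overlap, against 50.2%. The share of members called lay below that of all genes in PH-CM against UNX and above it in the other comparisons, and with 9 members these shares were not tested. The median size of the log2 change of the members was 0.27 in PH-CM against UNX, beside 0.43 over all genes, and 0.41 in CO-CM against UNX, beside 0.36.

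A single edgeR test for any difference among the 3 groups passed for 7 of the 9 members, where it passed for 81.4% of all genes. Gapdh (adjusted p 0.104) and Tbp (adjusted p 0.128) did not pass. With the replicate block both did, Gapdh at an adjusted p of 0.000110 and Tbp at 0.0355. A p that missed the threshold therefore does not show that these 2 were level. Intervals of the fit without the block gave a stricter reading. The 95% interval lay wholly inside the fold of 1.2 for 1 member in PH-CM against UNX (Gusb) and for 0 in CO-CM against UNX. In PH-CM against CO-CM it did so for 4 (Tbp, Ywhaz, Gusb and Polr2a). Intervals with the block are not given here.

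**Figure D2:**
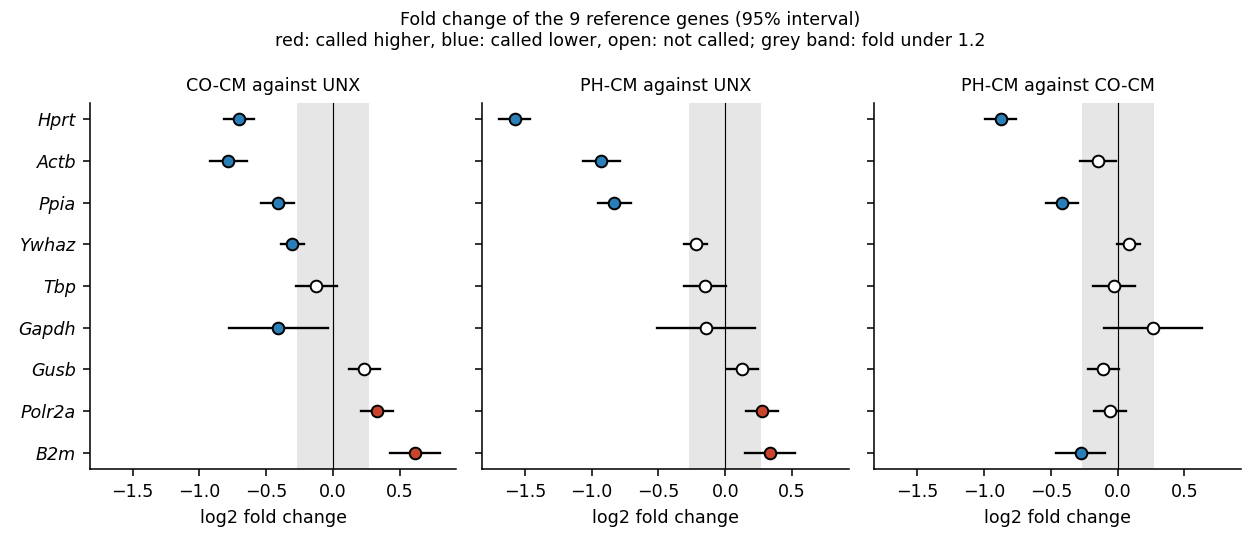
Log2 fold change of the 9 reference genes in each comparison, with 95% intervals from the edgeR fit and a grey band for folds under 1.2. Red marks members called higher, blue those called lower and open circles those not called. Hprt is farthest from 0 in PH-CM against UNX, at -1.58, and Gapdh has the widest intervals.

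Spread over the 9 libraries ranked the members from Tbp to Hprt. The SD of log2 CPM was 0.0994 for Tbp, 0.113 for Gusb, 0.137 for Ywhaz and 0.161 for Polr2a, then 0.286 for B2m, 0.293 for Gapdh, 0.363 for Ppia and 0.436 for Actb, and 0.687 for Hprt. The median over all genes tested was 0.261, and 88.1% of the genes tested had a smaller SD than Hprt, whereas 10.2% had a smaller SD than Tbp. Thus 4 of the 9 were steadier than the median gene and 5 were not.

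Within groups the order was another one. The pooled SD was smallest for Ywhaz, 0.0204 on the log2 scale, and 0.393% of all genes had a smaller one. It was 0.0621 for Hprt, below the median of 0.0976 over all genes, and 0.260 for Gapdh, the largest of the 9. Hprt was thus even between replicates and uneven between groups, with group means that ranged over 1.58 on the log2 scale, 25.4 times its spread within groups. Gapdh was the reverse, with a range of 0.43, which is 1.65 times its own spread. Tbp had the smallest range of group means, 0.15.

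**Figure D3:**
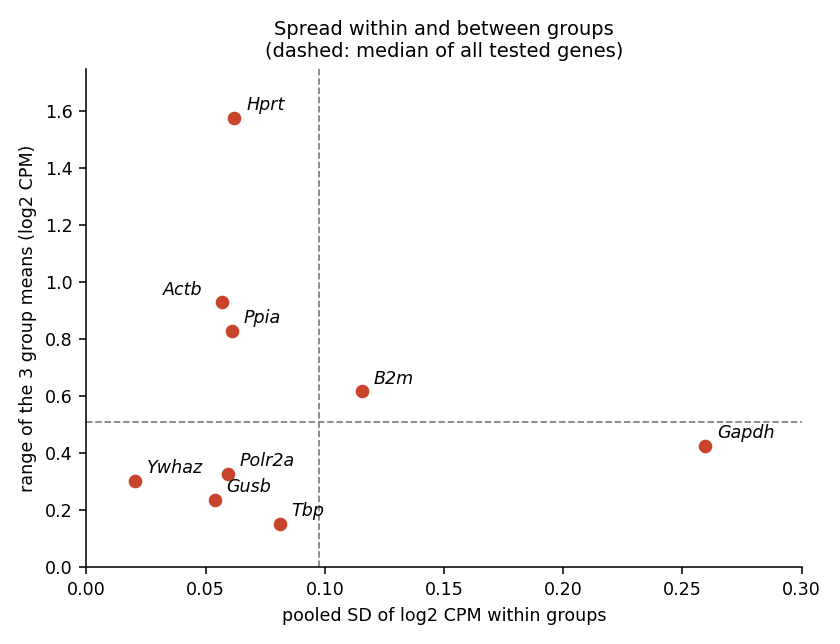
Range of the 3 group means against the pooled SD within groups, both in log2 CPM, with 1 point for each reference gene and dashed lines at the medians of all genes tested. Hprt sits highest at 1.58, Gapdh farthest to the right at 0.260, and Ywhaz, Gusb, Polr2a and Tbp fall below both medians.

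A measure that needs no scaling between libraries also set Ywhaz, Tbp and Gusb lowest and Hprt highest. B2m stood above Actb by this measure and below it by the SD over the libraries. For each member the SD over the 9 libraries of its log2 read ratio to each other member was averaged over the other 8. This mean was lowest for Ywhaz (0.311), Tbp (0.319) and Gusb (0.340) and highest for B2m (0.459) and Hprt (0.625). The most parallel of the 36 pairs was Gusb and Polr2a, whose log2 ratio had an SD of 0.0688, followed by Tbp and Ywhaz at 0.111. Actb and Ppia kept a ratio with an SD of 0.173. The most divergent pair was Hprt and B2m, at 0.857, and the ratio of Hprt to B2m was 1.92 lower on the log2 scale in PH-CM than in UNX.

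The replicate number left a mark on several members. Averaged over the groups, the libraries numbered 1 lay 0.28 below their group mean in log2 CPM for Gapdh, 0.12 for B2m, 0.067 for Polr2a, 0.053 for Gusb and 0.047 for Ppia, and for these 5 genes number 1 was the lowest library of all 3 groups, as it was for 16.5% of all genes tested. For Tbp it was the lowest in 0 groups. With the 3 libraries numbered 1 left out together, a choice made after seeing the data, the SD of Gapdh over the remaining libraries was 0.170 and the counts of members called were 5, 7 and 3, as before.

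Levels compared between genes have to be set per length. In the deposited RPKM (counts scaled to library total and to exon length), UNX libraries held 3834 ± 216 for Actb, 1388 ± 135 for B2m, 626 ± 74.1 for Gapdh, 248 ± 2.95 for Ppia, 174 ± 6.14 for Gusb, 126 ± 4.65 for Hprt, 125 ± 1.93 for Ywhaz, 72.6 ± 1.73 for Polr2a and 1.53 ± 0.099 for Tbp (SD, n = 3). Hprt and Ywhaz did not differ beyond their spread, and the other neighbours in this order did. In PH-CM Hprt stood at 40.6 ± 1.05 RPKM, below Polr2a at 84.3 ± 2.01, and so moved from the sixth place to the eighth.

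The order depended on the length used. The length behind the deposited RPKM covers all annotated exons, which is 13399 bases for Tbp, 4133 for Gapdh and 3508 for Ppia, while their shortest principal transcripts hold 1891, 1272 and 1170 bases. For Hprt (1289 bases) and B2m (860) both lengths are the same. With the length of the principal transcript, chosen after seeing the data, UNX levels were 10.8 ± 0.703 for Tbp, 744 ± 8.85 for Ppia and 2034 ± 241 for Gapdh, and Gapdh then stood above B2m. By that length Hprt held the seventh place in UNX and the eighth in PH-CM. The length does not enter any difference between groups.

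The loci differ in how cleanly their reads can be assigned. On GRCm38 Actb lies on chromosome 5 from 142903115 to 142906754, Gusb on chromosome 5 from 129989011 to 130003049, Gapdh on chromosome 6 from 125161715 to 125166467, Polr2a on chromosome 11 from 69733997 to 69758637 and Ywhaz on chromosome 15 from 36770770 to 36796929, all on the minus strand. Ppia lies on chromosome 11 from 6415443 to 6419817, B2m on chromosome 2 from 122147686 to 122153083 and Tbp on chromosome 17 from 15499888 to 15528379, all on the plus strand. B2m overlaps Patl2 and Tbp overlaps Pdcd2, each on the opposite strand, with 128 and 0 counted reads over the 9 libraries. The remaining members but Gapdh overlap no other annotated gene. Processed pseudogenes of Actb, Gapdh and Ppia can share reads with the genes, and their part was not tested.

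Genes that work beside each member were taken from fixed lists, with no test of a list as a whole. Each count is to be set beside the 31.3% of all genes called higher and the 31.7% called lower in PH-CM against UNX. Hprt belongs to purine metabolism, and of 16 tested genes of purine salvage and synthesis 12 were lower, 2 higher and 2 not called in PH-CM against UNX, with a median log2 fold change of -1.03 beside 0.0072 over all genes. Prps1, which makes the phosphoribosyl donor that the Hprt enzyme uses, fell most (log2 -2.12 by edgeR, adjusted p 1.69e-07), and Adssl1, an adenylosuccinate synthase, rose most, from 121 ± 11.1 to 280 ± 14.5 CPM (SD, n = 3 each; edgeR adjusted p 1.04e-06). In CO-CM against UNX the list held 13 lower and 1 higher, where 28.9% of all genes were lower and 28.0% higher.

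Of 21 genes of the actin cytoskeleton, the surroundings of Actb, 15 were lower, 1 higher and 5 not called in PH-CM against UNX (31.7% of all genes were lower), with a median of -0.34. Tpm4, a tropomyosin that lines actin filaments, was lowest (-1.01 by edgeR, adjusted p 9.73e-07), and Arpc3, a subunit of the Arp2/3 nucleator, was the gene called higher (0.67, adjusted p 9.60e-07). Of 13 cyclophilins and relatives beside Ppia 6 were lower, 1 higher and 6 not called, from -1.67 for Ppil1 to 0.34 for Ppil2. Of the 6 other 14-3-3 proteins 2 were lower, 1 higher and 3 not called, from -0.53 for Ywhae to 0.34 for Sfn.

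Lysosomal enzymes of the kind of Gusb moved the other way. Of 18, 13 were higher, 2 lower and 3 not called in PH-CM against UNX (31.3% of all genes were higher), with a median log2 fold change of 0.60. Sgsh, the heparan sulfamidase, rose most (1.33 by edgeR, adjusted p 4.59e-07). Of 13 MHC class I genes beside B2m 4 were higher, 5 lower and 4 not called, from 0.74 for H2-D1, a heavy chain, to -0.72 for Calr, the chaperone calreticulin.

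Of 19 glycolysis genes beside Gapdh 4 were higher, 1 lower and 14 not called in PH-CM against UNX, from 2.47 for Ldhb to -0.87 for Pfkp. Like Gapdh, this list depended on the replicate block. With the block 5 were higher and 2 lower in PH-CM against UNX, where 32.2% of all genes were higher and 32.4% lower. In CO-CM against UNX the counts were 2 higher and 4 lower without the block and 5 higher and 11 lower with it (29.1% and 29.7% of all genes with it). In PH-CM against CO-CM they were 2 higher and 2 lower without it and 10 higher and 2 lower with it (14.02% and 16.4% of all genes). The number not called thus fell from 13 to 3 and from 15 to 7 in the latter comparisons.

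Among 31 general transcription factors and subunits of RNA polymerase II, 12 were lower, 1 higher and 18 not called in PH-CM against UNX (31.7% of all genes were lower), from 0.54 for Taf8 to -1.03 for Taf5. The median log2 fold change of this list, which leaves out Tbp and Polr2a themselves, was -0.16.

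What a shift in the reference does to relative folds was read from the same libraries by scaling all genes to the reads of 1 reference gene at a time. The change of every gene then moves by the change of that reference with its sign turned, so the median over all genes follows from the members' own values. With TMM, which centres the bulk of genes by design, it was 0.0072 on the log2 scale in PH-CM against UNX. Scaled to Hprt it was 1.59, to Actb 0.94 and to Ppia 0.84. It was 0.23 with Ywhaz, 0.16 with Tbp and 0.16 with Gapdh, and -0.12 with Gusb, -0.27 with Polr2a and -0.34 with B2m.

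Calls followed. With TMM, edgeR called 3746 genes higher and 3788 lower in PH-CM against UNX. Scaled to Hprt, 11108 were called higher and 447 lower, and 2951 of the 3787 other genes called lower with TMM were then called higher. Scaled to Actb or Ppia 9821 and 9426 genes were called higher and 830 and 933 lower, and scaled to B2m 1752 were higher and 6159 lower. Tbp (4823 higher, 2872 lower), Ywhaz (5472 and 2566), Gusb (2897 and 4648) and Polr2a (2122 and 5736) lay between these. The geometric mean of all 9 gave 6464 higher and 2035 lower.

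**Figure D4:**
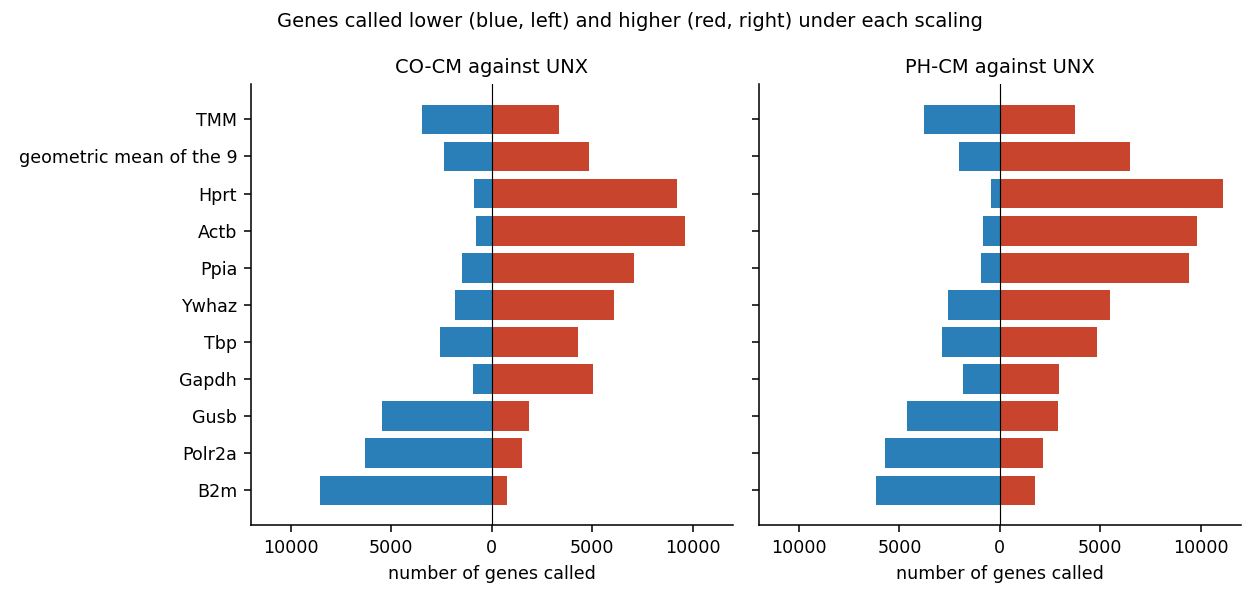
Number of genes called lower (to the left) and higher (to the right) when all genes are scaled by TMM, by the geometric mean of the 9 reference genes or by 1 reference gene alone. In PH-CM against UNX the split runs from 11108 higher and 447 lower with Hprt to 1752 higher and 6159 lower with B2m.

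In CO-CM against UNX the largest shift came from Actb rather than Hprt, with 9626 genes called higher and 805 lower, against 9234 and 907 with Hprt and 3351 and 3455 with TMM. In PH-CM against CO-CM, Hprt gave 10982 higher and 151 lower and Ppia 8010 and 512, while Actb gave 2982 and 1042, beside 1457 and 1787 with TMM. Scaling to Gapdh, in a fit without the replicate block, changed the precision as well as the centre. The biological coefficient of variation was 0.200 with Gapdh and 0.0847 with TMM. In PH-CM against UNX 2953 genes were called higher and 1828 lower, with 2788 of the 7534 TMM calls lost. The library numbered 1 was the lowest Gapdh library of every group. How much of the lost precision came from the replicate number was not tested.

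The study's mouse primer table covers 25 genes besides Hprt, of which 24 passed the filter and Il6 did not. With TMM 12 of the 24 were called higher in PH-CM against UNX, 1 lower and 11 not. Relative to Hprt or to Actb all 24 were called higher in this comparison. Relative to Ppia 23 were higher, to Ywhaz and Tbp 15 each, to Gapdh and Gusb 10 each, and to Polr2a and B2m 9 each. The same reads gave 6 genes lower with B2m, 4 with Polr2a and 3 with Gusb.

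C5ar1, the receptor for complement fragment C5a, turned its direction with the reference. Per library size it measured 918, 758 and 789 CPM in UNX and 487, 506 and 505 in PH-CM, and every PH-CM library lay below every UNX library. For each 100 reads of Hprt it had 541, 473 and 498 in UNX and 958, 946 and 955 in PH-CM, where the order of the groups is the opposite. For each 100 reads of Gusb the values were 121, 94.3 and 96.9 against 59.0, 61.2 and 59.7. The edgeR log2 fold change was -0.66 with TMM (adjusted p 1.07e-05) and 0.92 scaled to Hprt (adjusted p 5.58e-09).

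Genes that were near level with TMM, that is relative to the bulk of genes, became gains relative to Hprt. Mtor, a growth kinase, had a log2 fold change of 0.033 with TMM (adjusted p 0.563 by edgeR) and 1.61 relative to Hprt, a relative fold of 3.06. Pkm, the muscle pyruvate kinase, had 0.032 with TMM (adjusted p 0.833 by edgeR) and the same relative fold of 3.06. Relative to B2m both had a fold of 0.807.

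Large changes kept their direction and took another size. Il1b, the cytokine interleukin-1 beta, had 12, 14 and 8 reads in UNX and 478, 770 and 622 in PH-CM, and its relative fold ran from 51.1 with B2m to 193 with Hprt, with 64.0 from TMM. Stat3, the transcription factor downstream of IL-6 type cytokines, ran from 1.72 with B2m to 6.53 with Hprt, with 2.19 from TMM (n = 3 in each group). Over the 23 genes with reads in every library the ratio between the highest and the lowest relative fold was the same, because it is that of the 2 references.

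**Figure D5:**
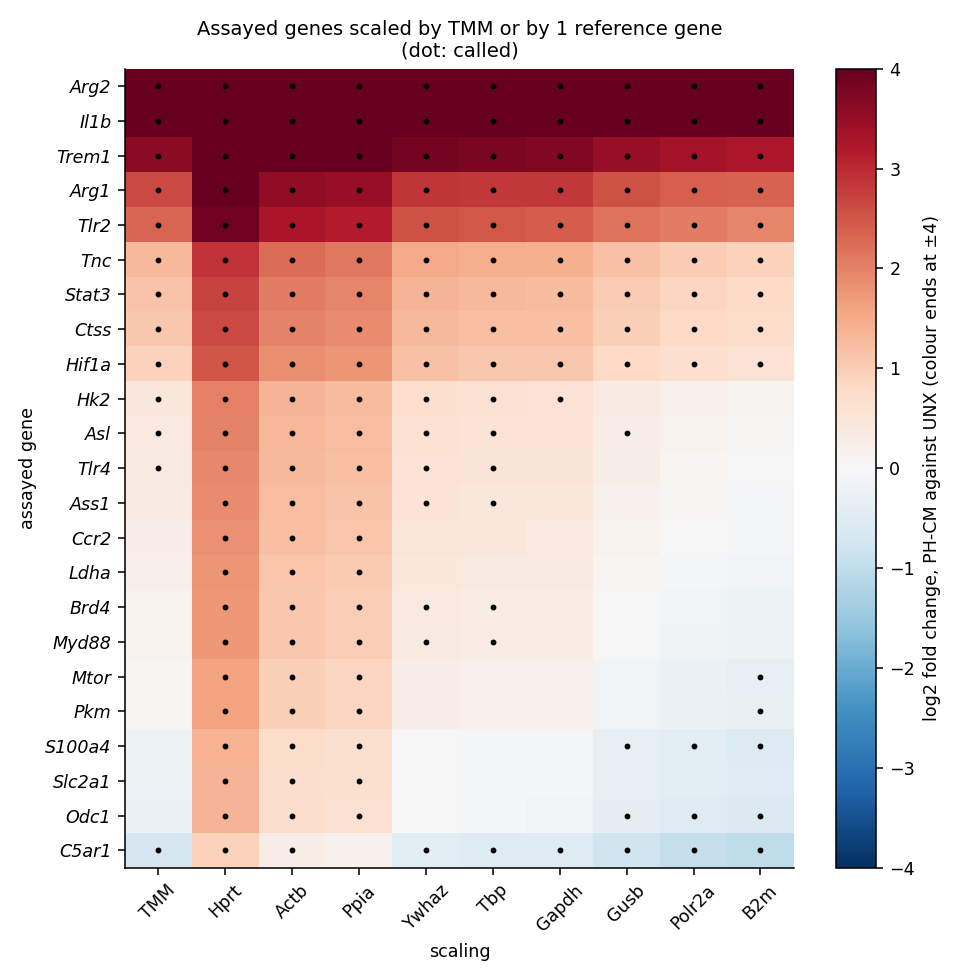
Log2 fold change in PH-CM against UNX of 23 of the 24 tested genes of the primer table (rows) under TMM or scaled to 1 reference gene (columns), with a dot where a gene was called. The Hprt column is positive throughout, C5ar1 goes from -0.66 with TMM to 0.92 with Hprt, and the B2m column holds the lowest values.

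In CO-CM against UNX 8 of the 24 were called higher and 6 lower with TMM. Relative to Hprt 17 were higher and 2 lower, and relative to B2m 3 were higher and 14 lower. Hif1a, the oxygen-responsive transcription factor, and Tlr4, the receptor for lipopolysaccharide, were called lower with TMM (log2 -0.27 and -0.38, edgeR adjusted p 0.0221 and 0.000157) and higher relative to Hprt (0.45 and 0.33, adjusted p 0.00267 and 0.00257). These values describe reads and not qPCR, which was not measured in these libraries.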

How the data were processed

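RNA-Seq of 9 libraries was used, 3 each of UNX, CO-CM and PH-CM, grouped by their labels. The authors used STAR for alignment to GRCm38 and featureCounts 1.6.2 for counting, with no option for strand or pairs named, and deposited raw counts per gene. The authors also deposited RPKM, which carry no factor for composition. The tables of the authors' own comparisons, with fold changes, p-values and FDR, were not used.

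Analysis used edgeR 4.0.16 under R 4.3.3. The 11950 of 53465 genes that exceeded a CPM of 1 in 3 or more libraries were scaled by TMM and fitted in 1 quasi-likelihood model with a mean per group. The adjusted p is a Benjamini-Hochberg value, and calls needed at most 0.05 and a fold of at least 1.2. Log2 CPM used a prior count of 2. For scaling to a reference gene, effective library sizes were set proportional to its reads and its own row was left out. Markers were summed as CPM without TMM. Fits were tested on simulated data first. Libraries held between 62017933 and 84314201 reads, and counting error weighs most on Tbp, with 1046 to 1637 reads per library. Of counts under 20, 81.4% to 83.8% were even, so fragments may be fewer than reads, and halved counts were an alternative.

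The same replicate numbers occur in each group. After group means were removed, log2 CPM correlated in all 9 pairs with the same number (r 0.276 to 0.484) and at most 0.0423 in the others, so the numbers, which come from the labels, were taken to pair the libraries, and a replicate block was an alternative. Others were DESeq2 1.42.0, edgeR's exact test, further scalings, filters and fold thresholds, counts divided by 2, only the 2 groups compared, and each library left out. The members and lists were chosen with earlier results of these data known. Named genes are the members, the primer table's genes, the highest and lowest of each list, the 3 genes most like Hprt and the 5 steadiest genes. The 2 purine genes not called were named after seeing the data. PKM2 of that table was read as Pkm. Values of 2 of these genes are not reported here. Primer sequences come from the study's supplement and were placed by exact match of their last 15 bases.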

Additional observations from a re-analysis of the deposited data

How the results depend on the processing

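Hprt was called lower in PH-CM against UNX under all 22 alternatives, with log2 fold changes from -1.64 to -1.53. A fold threshold of 2 left 2153, 1655 and 612 genes called in PH-CM against UNX, CO-CM against UNX and PH-CM against CO-CM, and 1, 0 and 0 of the members, because it asks for larger folds. Leaving out 1 library gave 3 to 5, 6 to 7 and 2 to 3 members in the same order, and 7222 to 7558, 6440 to 6757 and 2764 to 3376 genes. The median SD of the 9 members (0.286) ranged from 0.183, without CO-CM replicate 1, to 0.306, and was 0.170 without all libraries numbered 1.

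Scaled to Hprt alone 11555 genes were called in PH-CM against UNX and 11133 in PH-CM against CO-CM. Actb alone gave 10431 in CO-CM against UNX. Gapdh alone gave 4781 in PH-CM against UNX and 1861 in PH-CM against CO-CM, where B2m gave 5369 and Ppia 8522. The replicate block gave 7714, 7037 and 3632 genes called, and 5, 7 and 4 members. Besides Gapdh and Tbp it changed no call of a member. Among the lists, whose blocked counts were added after seeing the data, it moved the calls of the glycolysis genes from 6 to 16 in CO-CM against UNX and from 4 to 12 in PH-CM against CO-CM.

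The log2 change of Tbp between the media, -0.027, ranged from -0.077 to 0.017 with 1 library left out, turned sign without CO-CM replicate 1 (0.011) and without PH-CM replicate 2 (0.017), and was called in none of these. Trem1 relative to Hprt in CO-CM against UNX was -1.89 from reads and 0.41 from RPKM plus a pseudocount of 1, and its 3 CO-CM libraries held 20, 6 and 10 reads. The call of Ywhaz in CO-CM was lost with upper-quartile factors, under which Gusb was called higher, and that of Polr2a with library size alone. In PH-CM the call of Polr2a was lost with library size alone and with either other filter, and Ywhaz was called lower with library size alone and with every gene kept.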

Other observations

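Other genes used as references were counted from a list of 30, all tested. In PH-CM against UNX 2 were called higher, 13 lower and 15 not, with a median log2 fold change of -0.23 beside 0.0072 over all genes, where 63.0% of genes were called. Tubb5, a beta-tubulin, was lowest, at 2160 ± 39.0 CPM in UNX and 463 ± 16.6 in PH-CM (log2 -2.22, edgeR adjusted p 4.38e-09, n = 3 each). Rab7, a small GTPase of late endosomes, was highest, at 494 ± 30.4 and 655 ± 13.2 CPM (log2 0.41, edgeR adjusted p 5.35e-05).

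The 5 steadiest of the 4190 genes with a mean of at least 50 CPM were Clptm1, Shc1, Sel1l, Drap1 and Ube2d3, chosen on the SD over these 9 libraries, which was 0.0233 to 0.0282 in log2 CPM. Clptm1 ran from 264 to 279 CPM and Ube2d3, a ubiquitin-conjugating enzyme, from 339 to 360. Having been picked for this value here, they carry no test of it.

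Across the 9 libraries the log2 CPM of Hprt was most like that of Tmsb4x (Pearson r 0.998), which encodes the actin-binding thymosin beta-4, Atp2a3 (0.998), a calcium pump of the endoplasmic reticulum, and Hdac9 (0.996), a histone deacetylase. With only 3 groups that share their libraries, 543 genes (4.54% of those tested) had an r above 0.95. Hdac9 had mean levels of 46.5 CPM in UNX, 16.0 in CO-CM and 5.31 in PH-CM.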
